A study of Mus musculus with 8 samples.

Results

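Glucuronosyltransferases (UGT enzymes) and the enzymes that make their cosubstrate, UDP-glucuronate, were examined in liver RNA of mice fed sodium phenobarbital (NaPB). The list held 10 genes: 8 transferase genes (Ugt1a1, Ugt1a9, Ugt2b1, Ugt2b5, Ugt2b34, Ugt2b35, Ugt2b36 and Ugt2a3) and 2 supply genes (Ugdh and Ugp2). They were chosen by name, and array features (spots) were assigned to them by gene symbol. Of the 10 genes, 8 had at least 1 feature, out of 20738 named genes on the array, and together they had 10 of 62976 features. No feature carried the symbol Ugt1a1 or Ugt1a9, so both genes were not analysed here. Ugt2b35 and Ugp2 had 2 features each, and the other 6 genes 1 each.

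The livers came from male mice of the CD-1 background that had eaten, for 7 days, a diet with 2500 ppm NaPB (4 arrays) or the same period of a control diet with 0 ppm (4 arrays). Each array held Cy3-labelled copies of the total RNA of a liver sample. The labels give no age. They do not say whether each array stands for its own mouse, so a p-value here reflects the spread among these samples, which may be technical. Values are deposited spot intensities, already scaled, and each probe has its own scale, so levels were compared between arrays for 1 probe and not between genes. In RNA of whole liver, fewer cells of a type and less RNA per cell cannot be told apart.

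UGT enzymes sit in the membrane of the endoplasmic reticulum and transfer glucuronate from UDP-glucuronate onto steroids, bile acids, bilirubin and drugs, which makes these compounds water-soluble and ready for export into bile or blood. The UGT1A proteins come from alternative first exons joined to a common set of later exons, while most UGT2 genes have exons of their own. UDP-glucuronate is made in the cytosol: UDP-glucose pyrophosphorylase, encoded by Ugp2, forms UDP-glucose, and UDP-glucose dehydrogenase, encoded by Ugdh, oxidizes it. Phenobarbital activates the nuclear receptor CAR in hepatocytes, and parts of this pathway are classical targets of drug-sensing receptors in rodent liver.

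The measured Ugt2 genes are neighbours on chromosome 5. In RefSeq's order along the chromosome the cluster of 10 genes runs Ugt2b34, Ugt2b1, Ugt2b35, Ugt2b36, Ugt2b5, Ugt2b37, Ugt2a3, Ugt2b38, Ugt2a1, Ugt2a2, with Ugt2b35 on the plus strand and the others on the minus strand. Ugdh is also on chromosome 5 and Ugp2 on chromosome 11. All 8 measured genes had a promoter window in RefSeq (build GRCm38.p6). The 100 bases upstream of the start are shown for the 6 listed and measured UGT genes, because 5 of them carry a shared element of 13 letters, and for Ugdh, the supply gene with the clearest difference. In the Ugt2b genes, capitals mark a match to GTTA and TTAAC spaced by 4 bases of which the second is A, a pattern that resembles the palindrome bound by the liver factor HNF1. In Ugt2a3 they mark GTTAAT, the single arm of that palindrome. They also mark AGGTCA, the hexamer bound by nuclear receptors, in Ugt2b36 and Ugt2b5. In Ugdh they mark GCGTG, the core of the Ah receptor site, which overlaps a reverse-strand match to TGACNNNGC, the core of the antioxidant response element.
Ugt2b34, chr5:86906938-86907037, minus strand: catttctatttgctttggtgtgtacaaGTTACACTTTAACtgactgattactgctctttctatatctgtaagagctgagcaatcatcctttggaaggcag
Ugt2b1, chr5:86926504-86926603, minus strand: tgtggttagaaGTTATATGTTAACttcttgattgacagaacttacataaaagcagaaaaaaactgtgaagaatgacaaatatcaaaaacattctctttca
Ugt2b35, chr5:87000760-87000859, plus strand: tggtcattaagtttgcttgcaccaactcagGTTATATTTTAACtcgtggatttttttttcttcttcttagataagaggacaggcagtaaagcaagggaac
Ugt2b36, chr5:87092556-87092655, minus strand: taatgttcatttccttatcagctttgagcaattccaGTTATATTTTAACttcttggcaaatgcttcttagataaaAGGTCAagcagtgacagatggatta
Ugt2b5, chr5:87140341-87140440, minus strand: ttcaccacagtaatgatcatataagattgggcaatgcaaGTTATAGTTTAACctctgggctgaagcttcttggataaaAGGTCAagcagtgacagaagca
Ugt2a3, chr5:87337196-87337295, minus strand: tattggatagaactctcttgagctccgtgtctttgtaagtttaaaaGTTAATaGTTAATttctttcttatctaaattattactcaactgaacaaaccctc
Ugdh, chr5:65435843-65435942, minus strand: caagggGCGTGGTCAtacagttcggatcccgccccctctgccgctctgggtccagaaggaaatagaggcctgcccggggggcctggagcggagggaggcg

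The spaced element was chosen after these windows had been read. It was searched on both strands from 250 bases before to 50 bases after each start. All 7 Ugt2b promoters of the cluster held it (those of the 5 genes shown, Ugt2b37 and Ugt2b38), against 30 of 32851 mouse promoters (0.0913%), a count that includes these 7. Its first base lay between positions −89 (Ugt2b1) and −61 (Ugt2b5) relative to the start. Ugt2a3 held GTTAAT instead, at positions −54 and −47, a match found in 7.1% of all promoters. AGGTCA, held by 16.3% of promoters, began at position −22 in Ugt2b5, −25 in Ugt2b36 and −215 in Ugt2b35. The direct repeats with 4 bases between the copies, of AGGTCA (0.0152% of promoters) and of AGTTCA (0.0122%), had no match in these windows of the listed genes, and a single AGTTCA was in 14% of promoters. GCGTG was in 32.4% of promoters, TGACNNNGC in 12.4% and TATAAA in 13.6%. The printed Ugt2 windows were also aligned over their length. Of those shown, Ugt2b36 and Ugt2b5 were the most alike, at 68.2% identical, and Ugt2b1 and Ugt2b5 the least, at 41.5%. Ugt2b34 was 48.8% to 55.8% identical to the other Ugt2 windows shown, and Ugt2b1 41.5% to 49.6%. Unrelated promoters were not aligned, so these values have no baseline. These matches describe the sequence and do not show that a factor binds.

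The Ugt2 genes are close paralogs, and probe sequences were not used here, so hybridisation of 1 gene's RNA to a neighbour's probe cannot be told apart from that neighbour's own level. All 10 features lay above the floor of the arrays (2 times the lowest value of an array) on all 8 arrays.

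On 3 of the 4 NaPB arrays, the transferase gene Ugt2b34 and the supply gene Ugdh were several times above every control array, and most other measured genes of the pathway were above the controls by a smaller margin. On NaPB replicate 4, 7 of the 8 genes lay below every control array, as 36.6% of all genes did. Over all arrays the diets overlapped for each of the 8 genes, and limma called none of them higher or lower at an adjusted p below 0.05 over all genes tested. Of the 8, 1 (Ugt2b34) had an unadjusted p below 0.05, where 10.1% of all genes had. The background was 209 of 20738 genes called (1.01%; 0.391% higher and 0.617% lower), and 1459 genes (7.04%; 2.72% higher and 4.31% lower) had diets that did not overlap. Without NaPB replicate 4, 2 of the 8 genes passed, Ugt2b34 and Ugdh, both higher, where 1.76% of all genes were called, 1.02% higher and 0.743% lower. The same 2 passed when all arrays were kept with estimated weights (3.92% of all genes called, 2.21% higher). With control replicate 1 left out as well as NaPB replicate 4, Ugt2b1 and Ugt2b35 joined them, 4 of the 8 (2.75% of all genes called, 1.8% higher).

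NaPB replicate 4 and control replicate 1 stood apart from the other arrays. The correlation of an array with the others, across genes, had a median of 0.931 for NaPB replicate 4 and 0.914 for control replicate 1, against at least 0.933 for every other array. Their estimated array weights in limma were 0.313 and 0.308, against 1.14 to 1.98 for the other 6. The ratio of the 99th to the 75th percentile of intensity was 62.3 on NaPB replicate 4 and 107 to 125 on the other NaPB arrays, against 65.8 to 124 on the control arrays. These measures do not favour leaving out NaPB replicate 4 over control replicate 1. Fold changes of the 8 genes are given below with and without NaPB replicate 4. It was the lowest NaPB array for all 8 genes, so leaving it out raises every fold change. With control replicate 1 alone left out, none of the 8 genes was called.

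**Figure D1:**
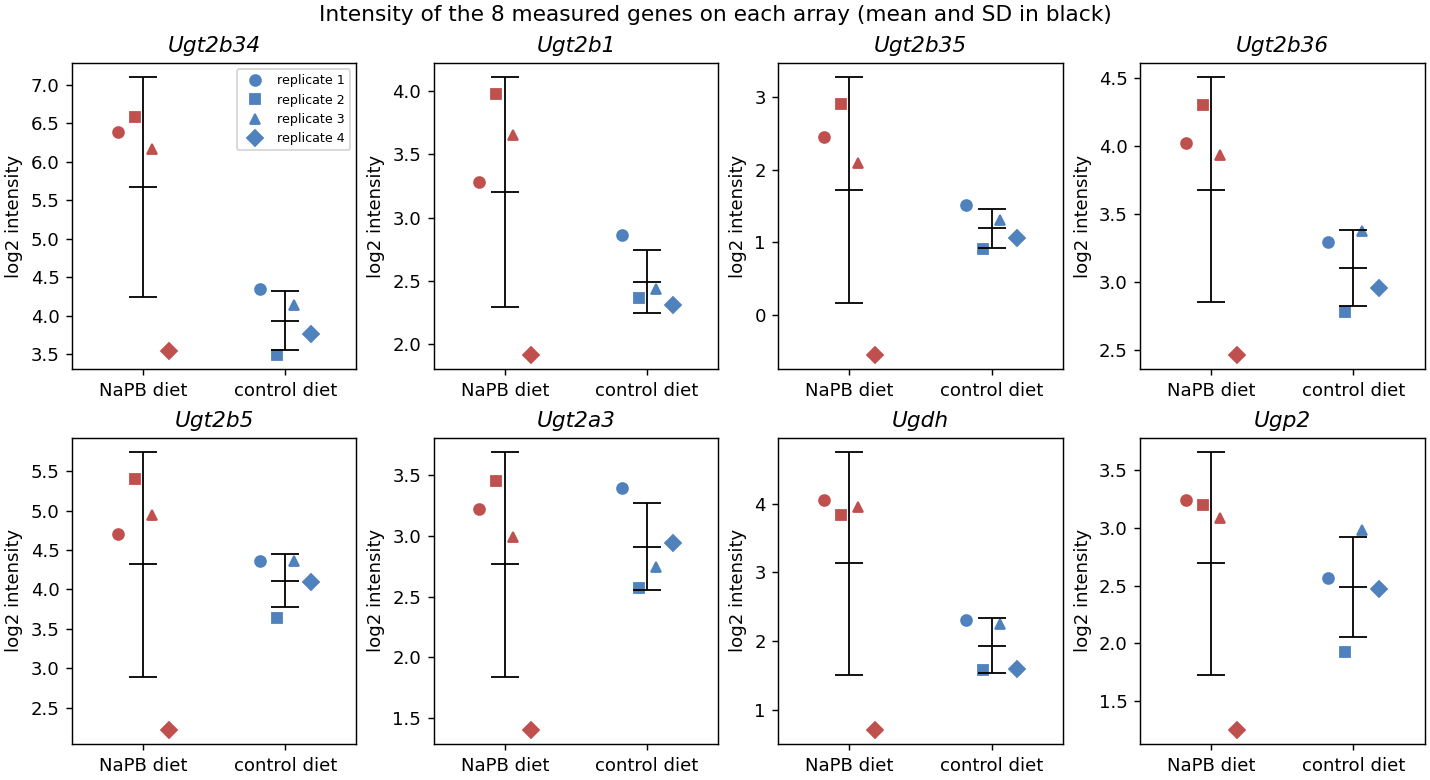
Log2 intensity of the 8 measured genes, by the brightest feature of each, on the NaPB arrays (red) and the control arrays (blue), with a symbol for each replicate number and the mean and SD of each diet in black; each panel has its own axis, which does not start at 0. NaPB replicates 1 to 3 sit above all control arrays in 7 of the 8 panels, and NaPB replicate 4, the diamond, is the lowest NaPB array in all 8.

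Among the transferases, Ugt2b34, which stands first in the cluster, had the largest fold change. Its intensity was 83.9, 96.2, 72.2 and 11.6 on NaPB replicates 1 to 4, against 20.4, 11.2, 17.6 and 13.6 on control replicates 1 to 4. NaPB replicates 1 to 3 were above every control array, and NaPB replicate 4 lay within the control range, so the diets overlapped. The log2 fold change over all arrays was 1.74 ± 0.60 (limma SE, 4 arrays per diet), a 3.34-fold higher geometric mean, with a limma adjusted p of 0.300. It was 2.45 ± 0.28, or 5.46-fold, with a limma adjusted p of 0.0048, when NaPB replicate 4 was left out.

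Ugt2b1, whose rat counterpart is a classical phenobarbital-inducible transferase, had intensities of 9.71, 15.7, 12.6 and 3.75 on the NaPB arrays, against 7.26, 5.14, 5.40 and 4.95 on the control arrays. Again NaPB replicates 1 to 3 were above every control, replicate 1 by a smaller margin, and replicate 4 was below every control. The log2 fold change was 0.71 ± 0.42 (limma adjusted p = 0.665) over all arrays and 1.15 ± 0.27 (limma adjusted p = 0.0865) without NaPB replicate 4.

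Ugt2b35 is the member of the cluster on the opposite strand. Its brighter feature read 5.46, 7.51, 4.26 and 0.678 on the NaPB arrays, against 2.85, 1.87, 2.47 and 2.08 on the control arrays. Its other feature read 6.07, 8.74, 5.05 and 0.688 on the NaPB arrays, against 2.65, 1.58, 2.06 and 1.88 on the control arrays. Both features gave the same picture, with NaPB replicates 1 to 3 above and replicate 4 below all controls. Their log2 fold changes were 0.53 ± 0.63 and 0.88 ± 0.66 over all arrays, and 1.29 and 1.68 without NaPB replicate 4. In the fit over all 62976 features without that array, the second feature passed (limma adjusted p = 0.0432) and the brighter one did not (limma adjusted p = 0.0982). That fit called 3 of the 10 features of these genes, the others being those of Ugt2b34 and Ugdh, where 1.1% of all features were called, 0.507% higher. Over all arrays it called 0 of the 10, against 1.02% of all features (0.329% higher).

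Ugt2b36 and Ugt2b5 had smaller fold changes than Ugt2b34 and Ugt2b1, with and without NaPB replicate 4. Ugt2b36 read 16.2, 19.7, 15.3 and 5.51 on the NaPB arrays, against 9.80, 6.88, 10.4 and 7.77 on the control arrays. Ugt2b5 read 26.1, 42.4, 30.8 and 4.65 on the NaPB arrays, against 20.5, 12.5, 20.5 and 17.1 on the control arrays. In both, replicates 1 to 3 were above and replicate 4 below every control. Their log2 fold changes over all arrays were 0.58 ± 0.40 (limma adjusted p = 0.732) and 0.21 ± 0.59 (limma adjusted p = 0.943). They were 0.98 ± 0.26 (limma adjusted p = 0.113) and 0.91 ± 0.29 (limma adjusted p = 0.198) without NaPB replicate 4. The fold change of Ugt2b5 over all arrays had no settled sign, since it was −0.16 without NaPB replicate 2.

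Ugt2a3, whose human counterpart conjugates bile acids, had the fold change closest to 0 of the 8 genes. It read 9.32, 10.9, 7.98 and 2.64 on the NaPB arrays, against 10.6, 5.93, 6.69 and 7.70 on the control arrays. The controls overlapped NaPB replicates 1 to 3, with NaPB replicate 2 just above control replicate 1, the highest control, and NaPB replicate 4 below every control. Its log2 fold change was −0.15 ± 0.44 (limma adjusted p = 0.945) over all arrays and 0.31 ± 0.28 (limma adjusted p = 0.709; 95% interval −0.32 to 0.94) without NaPB replicate 4.

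**Figure D2:**
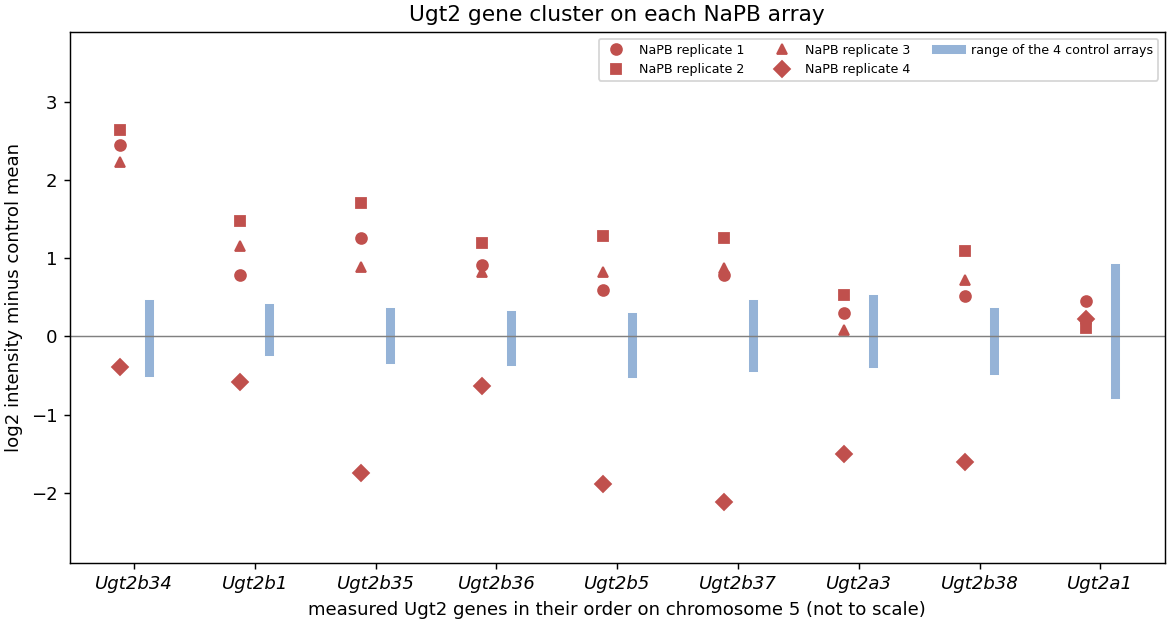
Log2 intensity minus the control mean for the 9 measured Ugt2 genes in their order on chromosome 5 (not to scale), with a red symbol for each NaPB replicate and a blue bar for the range of the 4 control arrays. Ugt2b34 lies highest on NaPB replicates 1 to 3, between 2.24 and 2.65, and Ugt2b37 lowest on NaPB replicate 4.

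Along the cluster, the deviations from the control mean were 2.24 to 2.65 log2 units for Ugt2b34 on NaPB replicates 1 to 3, and 0.08 to 0.54 for Ugt2a3. On NaPB replicate 4 the distance below the control mean varied among the genes. Ugt2b34, Ugt2b1 and Ugt2b36 were 1.31-fold to 1.56-fold below the control mean there, while Ugt2a3, Ugt2b35 and Ugt2b5 were 2.85-fold, 3.37-fold and 3.72-fold below it. Against NaPB replicates 1 to 3, NaPB replicate 4 was 3.08-fold (Ugt2b36) to 8.24-fold (Ugt2b35) lower among the 6 listed and measured transferases. None of these differences between genes was tested, since each rests on 1 array.

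Of the supply genes, Ugdh, the dehydrogenase, showed the clearer difference. It read 16.7, 14.2, 15.4 and 1.63 on the NaPB arrays, against 4.95, 3.00, 4.74 and 3.02 on the control arrays. NaPB replicates 1 to 3 lay close together and more than 2 times above every control, and NaPB replicate 4 lay below every control and 9.46-fold below the other NaPB arrays, the widest such gap among the 8 genes. The log2 fold change was 1.20 ± 0.66 (limma adjusted p = 0.629), or 2.30-fold, over all arrays. It was 2.01 ± 0.28 (limma adjusted p = 0.0116), or 4.04-fold, without NaPB replicate 4.

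Ugp2, the pyrophosphorylase of the step before, had a smaller fold change. Its brighter feature read 9.47, 9.21, 8.50 and 2.37 on the NaPB arrays, against 5.92, 3.80, 7.90 and 5.56 on the control arrays. Its other feature read 2.64, 2.86, 2.71 and 0.713 on the NaPB arrays, against 1.66, 1.14, 2.37 and 1.84 on the control arrays. On both features, NaPB replicates 1 to 3 were above every control by a narrow margin over control replicate 3, and NaPB replicate 4 was below every control. The log2 fold changes were 0.21 ± 0.46 and 0.20 ± 0.46 over all arrays (limma adjusted p = 0.929 and 0.931). Without NaPB replicate 4 the brighter feature gave 0.69 ± 0.29 (limma adjusted p = 0.327).

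Whether the supply genes differed from each other was asked within each array, by the log2 intensity of Ugdh minus that of Ugp2. This difference was 0.81, 0.63, 0.86 and −0.54 on NaPB replicates 1 to 4, against −0.26, −0.34, −0.74 and −0.88 on control replicates 1 to 4. NaPB replicates 1 to 3 were above every control array, and NaPB replicate 4 lay inside the control range. The mean was 0.44 ± 0.66 on the NaPB diet and −0.55 ± 0.30 on the control diet (SD, n = 4 each). They differed by 0.99, with a two-sided exact permutation p of 0.0857, where the smallest p that 70 assignments allow is 0.0286. Without NaPB replicate 4 they differed by 1.32, with an exact permutation p of 0.0286, the smallest that 35 assignments can give.

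**Figure D3:**
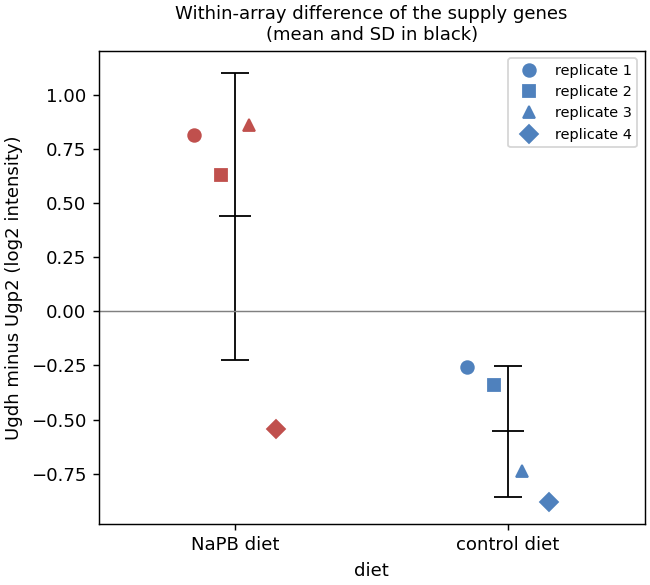
Log2 intensity of Ugdh minus that of Ugp2 on each NaPB array (red) and control array (blue), with a symbol for each replicate number and the mean and SD of each diet in black. NaPB replicates 1 to 3 lie between 0.63 and 0.86, and NaPB replicate 4, at −0.54, lies among the control arrays.

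**Figure D4:**
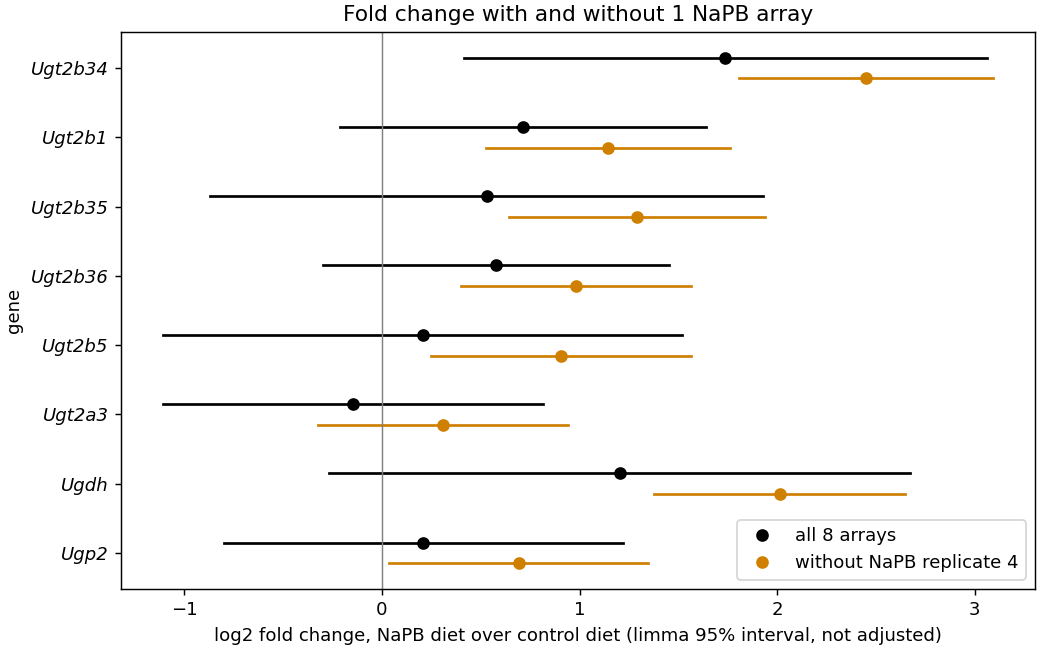
Log2 fold change, NaPB diet over control diet, of the 8 measured genes with the limma 95% interval, which is not adjusted for the number of genes, over all 8 arrays (black) and without NaPB replicate 4 (orange). Over all arrays the interval of Ugt2b34 alone excludes 0, and without NaPB replicate 4 that of Ugt2a3 alone includes it.

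Over the 8 measured genes the median log2 fold change was 0.55 over all arrays, against 0.01 over all genes and 0.05 over the 3475 genes at least as bright as the dimmest of the 8. Without NaPB replicate 4 it was 1.06, against 0.05 over all genes and 0.23 over genes as bright. On NaPB replicates 1 to 3, 7 of the 8 genes (all but Ugt2a3) exceeded every control array, where 10.2% of all genes and 23.5% of those as bright did (of those as bright, 2.53% were called higher in limma without NaPB replicate 4). On NaPB replicate 4, 7 of the 8 (all but Ugt2b34) were below every control array, where 36.6% of all genes and 60.7% of those as bright were. Both held for 6 of the 8, against 3.58% of all genes. The share for both among genes as bright was not computed. A shift on NaPB replicate 4 was thus common among bright genes, with a median of −0.80 log2 units from the other NaPB arrays. The median over the 8 genes was −2.37 (range −3.24 to −1.62). A shift of that size was not particular to them. Of the other measured genes of the cluster, Ugt2b37 and Ugt2b38 were at −3.10 and −2.39, and Ugt2a1 at −0.04. Ugt2b37 and Ugt2b38 were also above every control array on NaPB replicates 1 to 3 and below every control array on replicate 4.

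The order of the other arrays was largely that of bright genes in general. NaPB replicate 2 was the highest array of its diet for 6 of the 8 genes, as for 49.6% of genes as bright. Control replicate 1 was the highest control for 6 of the 8 and control replicate 2 the lowest for 7, as for 75.8% and 75.7% of genes as bright (43.8% and 34.7% of all genes). The mean deviation of the 8 genes from the control mean was 1.15, 1.44, 1.08 and −1.16 log2 units on NaPB replicates 1 to 4, against 0.31, −0.36, 0.18 and −0.12 on control replicates 1 to 4. The SD over the 4 NaPB arrays was 0.83 to 1.62 log2 units, against 0.25 to 0.43 over the control arrays, and it was 0.08 to 0.41 over NaPB replicates 1 to 3. As a description over 8 arrays, which share diet and NaPB replicate 4, the Pearson correlation of log2 intensity was 0.964 between Ugt2b34 and Ugdh and 0.988 over the 7 arrays without NaPB replicate 4. The lowest value of any pair of the 8 genes over all arrays was that of Ugt2a3 with Ugt2b34 (0.612).

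Beyond the 10 genes, 9 of 14 other genes of the glucuronosyltransferase family were measured. Over all arrays limma called 0 of the 9, with 3 at an unadjusted p below 0.05 (10.1% of all genes). Their median log2 fold change was 0.20, with 6 above 0 and 3 below. Ugt3a1 and Ugt3a2, whose human counterparts use sugars other than glucuronate, had log2 fold changes of −1.13 ± 0.32 and −0.82 ± 0.29 (limma adjusted p = 0.167 and 0.325), and −0.94 and −0.62 without NaPB replicate 4. Both genes were lower on every NaPB array than on every control array, as 4.31% of all genes and none of the 8 genes above were. Ugt3a1 read 4.71, 3.71, 2.89 and 2.17 on the NaPB arrays, against 8.30, 5.07, 8.58 and 6.98 on the control arrays. Ugt3a2 read 3.87, 3.69, 3.23 and 2.07 on the NaPB arrays, against 7.03, 4.78, 5.88 and 4.72 on the control arrays.

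Ugt1a6b belongs to the UGT1A genes, and Ugt1a6 enzymes conjugate small planar phenols. Its brighter feature read 327, 398, 280 and 172 on the NaPB arrays, against 206, 108, 179 and 153 on the control arrays. Here NaPB replicate 4 lay inside the control range and the other NaPB arrays above it, with a log2 fold change of 0.84 ± 0.33 in limma (adjusted p = 0.403), or 1.08 ± 0.29 (limma adjusted p = 0.127) without NaPB replicate 4. Its other feature had the opposite sign, at −0.52 ± 0.34 (limma adjusted p = 0.730 over all features), so the direction for this gene depends on the feature. Since UGT1A genes share later exons and probe sequences were not used, RNA of other UGT1A genes on either feature cannot be told apart from that of Ugt1a6b. Ugt8a, the enzyme that adds galactose to ceramide, had a log2 fold change of −0.41 ± 0.39 in limma (adjusted p = 0.810), or −0.69 without NaPB replicate 4.

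Of the other genes of UDP-glucose and glucuronate metabolism, 13 of 15 were measured. Limma called 0 of the 13 over all arrays, with 2 at an unadjusted p below 0.05 (10.1% of all genes), and their median log2 fold change was 0.17, with 8 above 0 and 5 below. The 2 were Rgn, the lactonase, and Gulo, the oxidase, of the steps that turn glucuronate into vitamin C in rodents, and both had negative fold changes. Rgn read 26.7, 28.8, 21.5 and 7.47 on the NaPB arrays, against 65.4, 32.3, 55.6 and 47.1 on the control arrays. All NaPB arrays were below all control arrays, as for 4.31% of all genes. The log2 fold change of Rgn was −1.37 ± 0.44 in limma (adjusted p = 0.244), or −0.93 ± 0.30 (limma adjusted p = 0.198) without NaPB replicate 4. Gulo read 8.18, 12.4, 9.21 and 3.85 on the NaPB arrays, against 24.7, 9.73, 22.2 and 14.0 on the control arrays. Its diets overlapped, through NaPB replicate 2 and control replicate 2, and its log2 fold change was −1.09 ± 0.42 (limma adjusted p = 0.378), or −0.76 ± 0.37 (limma adjusted p = 0.408) without NaPB replicate 4.

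Gusb, the lysosomal enzyme that removes glucuronate from conjugates, had a log2 fold change of 0.68 ± 0.34 in limma (adjusted p = 0.570) on its brightest feature, or 0.91 without NaPB replicate 4, and all 10 of its features were above 0 over all arrays. Xylb, the kinase at the end of the route from glucuronate to xylulose phosphate, had a log2 fold change of −0.45 ± 0.29 in limma (adjusted p = 0.706), or −0.28 without NaPB replicate 4.

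**Figure D5:**
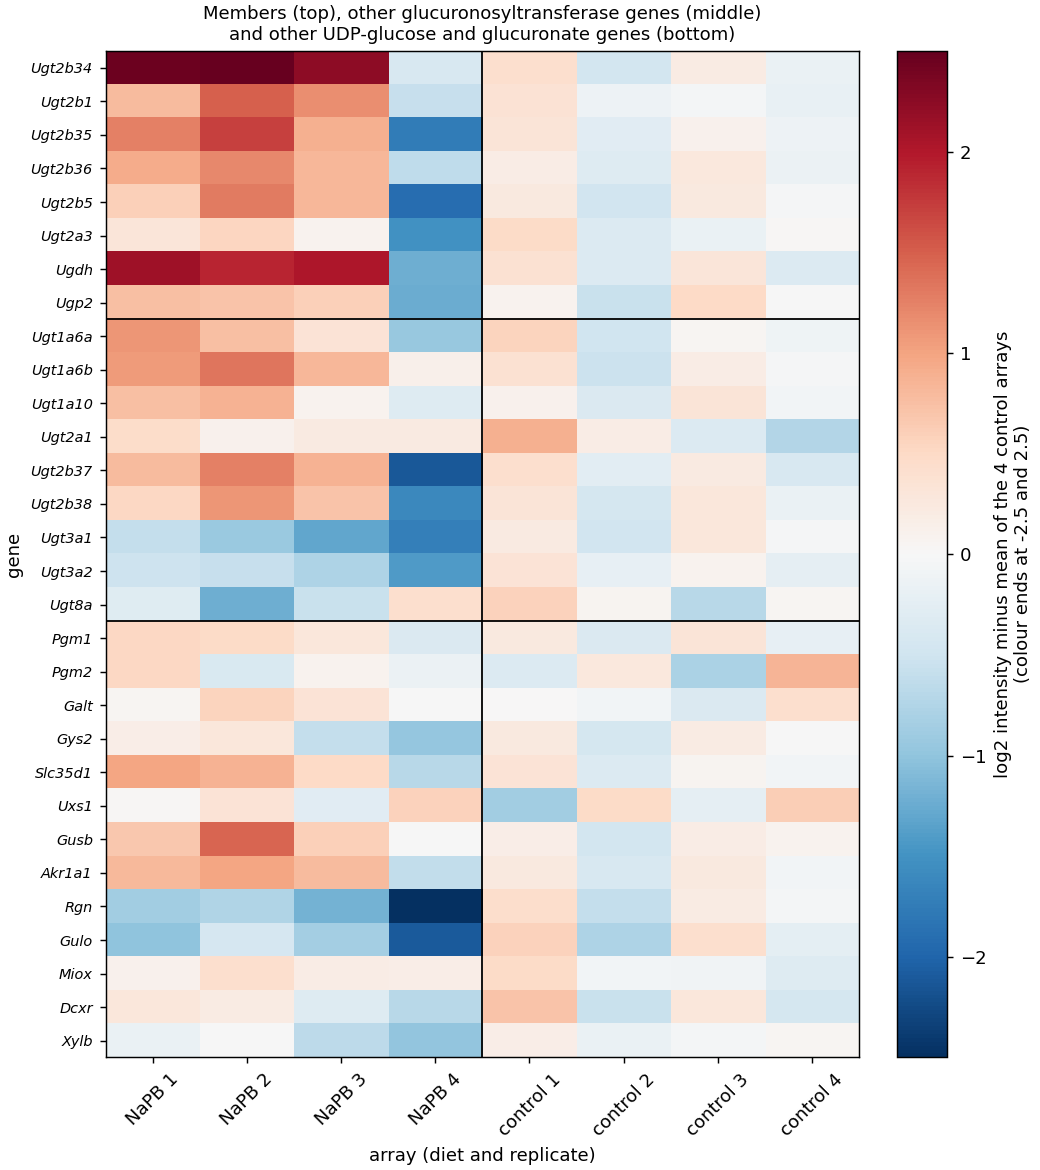
Log2 intensity minus the mean of the 4 control arrays for the 8 measured genes (top), 9 other glucuronosyltransferase genes (middle) and 13 other genes of UDP-glucose and glucuronate metabolism (bottom), on each NaPB array (left of the line) and control array (right of it), with colours ending at −2.5 and 2.5. Ugt2b34 and Ugdh are the darkest red on NaPB replicates 1 to 3, and the column of NaPB replicate 4 is blue for all 8 genes of the top block.

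Glucuronides leave the hepatocyte through ABC transporters, and all 4 listed ones were measured. Abcc4, an exporter to blood, rose 6.29-fold with a log2 fold change of 2.65 ± 0.52 in limma (adjusted p = 0.0421). It read 1.45, 1.31, 1.02 and 0.251 on the NaPB arrays, against 0.194, 0.140, 0.0994 and 0.115 on the control arrays, so that even NaPB replicate 4 exceeded every control. These are dim values: the controls and NaPB replicate 4 lay below the median intensity of every array (0.288 to 0.396), though above the floor. The size of this fold change is therefore less certain. Its limma adjusted p was 0.0019 with NaPB replicate 4 left out, and 0.0648 to 0.136 with any other array left out. Abcc3, the main exporter of glucuronides to blood, read 47.5, 49.8, 43.5 and 20.7 on the NaPB arrays, against 14.7 to 18.5 on the control arrays. The diets did not overlap for Abcc3 or Abcc4, both higher, as for 2.72% of all genes. Abcc3 did not pass over all arrays, at 1.15 ± 0.32 (limma adjusted p = 0.167), and passed at 1.45 ± 0.23 (limma adjusted p = 0.0201) without NaPB replicate 4. Abcc2, the exporter to bile, followed the pattern of Ugdh: it read 8.53, 14.6, 13.7 and 2.32 on the NaPB arrays, against 5.42, 3.22, 3.45 and 3.60 on the control arrays, and passed without NaPB replicate 4, at 1.64 ± 0.30 (limma adjusted p = 0.0344; 1.05 ± 0.53 and 0.576 over all arrays). Abcg2, another exporter to bile, had a log2 fold change of −0.31 ± 0.29 in limma (adjusted p = 0.807), or −0.18 without NaPB replicate 4.

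The index genes of the drug-sensing receptors show the state of NaPB replicate 4 beside the glucuronidation genes. Cyp2b10, the P450 by which CAR activity is usually read in mice, had intensities of 521, 491, 430 and 77.7 on the NaPB arrays, against 3.72, 0.863, 2.98 and 5.22 on the control arrays. NaPB replicate 4 was thus far above every control for Cyp2b10, but 6.16-fold below the mean of the other NaPB arrays. That is −2.62 log2 units, against a median of −2.37 over the 8 glucuronidation genes. On this array, 7 of the 8 glucuronidation genes were below every control. The same held for 36.6% of all genes and 60.7% of those at least as bright as the dimmest of the 8. The log2 fold change of Cyp2b10 was 6.84 ± 0.69 (limma adjusted p = 0.0018), or 114-fold, over all arrays, and 7.49 ± 0.55, or 180-fold, without NaPB replicate 4. Cyp3a11, the index of PXR, had 1.24 ± 0.39 (limma adjusted p = 0.237) over all arrays and 1.58 ± 0.32 (limma adjusted p = 0.0475) without NaPB replicate 4. Cyp1a2, read for the Ah receptor, had 0.36 ± 0.40 (limma adjusted p = 0.847), or 0.74 without NaPB replicate 4. Cyp4a10, read for PPARα, had −0.79 ± 0.75 (limma adjusted p = 0.808), or −0.60 without NaPB replicate 4. Nqo1, read for Nrf2, had −0.21 ± 0.51 (limma adjusted p = 0.933), or 0.18 without NaPB replicate 4, and was above the floor on 3 of 8 arrays.

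Transcripts of the receptors themselves were not called: of 7 listed, 6 were measured, limma called 0, and 1, Ppara, had an unadjusted p below 0.05 (10.1% of all genes). Ppara, the fatty acid receptor, had a log2 fold change of −0.94 ± 0.30 in limma (adjusted p = 0.249), or −0.87 without NaPB replicate 4. All its NaPB arrays were below all control arrays, as for 4.31% of all genes. Nr1i3, which encodes CAR, had −0.21 ± 0.33 (limma adjusted p = 0.890), or −0.13 without NaPB replicate 4. Hnf4a, a liver-enriched nuclear receptor, had 0.29 ± 0.26 (limma adjusted p = 0.796), or 0.34 without NaPB replicate 4. Nr1i2, which encodes PXR, had 0.44 ± 0.34 (limma adjusted p = 0.757), or 0.72 ± 0.27 (limma adjusted p = 0.278) without NaPB replicate 4. Ahr, which encodes the Ah receptor, had 0.92 ± 0.54 (limma adjusted p = 0.665), or 1.90-fold, over all arrays, and 1.52 ± 0.34 (limma adjusted p = 0.0658), or 2.86-fold, without NaPB replicate 4. Nfe2l2, which encodes Nrf2, had 0.69 ± 0.51 (limma adjusted p = 0.744), or 1.62-fold, over all arrays, and 1.26 ± 0.30 (limma adjusted p = 0.084), or 2.40-fold, without NaPB replicate 4. On their brightest features, Nr1i2, Ahr, Nfe2l2 and the index gene Cyp1a2 were below every control on NaPB replicate 4 and above every control on the other NaPB arrays, as 6 of the 8 glucuronidation genes and 3.58% of all genes were. The share among genes of like brightness was not computed. A dimmer second feature of Ahr lay inside the control range on NaPB replicate 4, at 0.0748.

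The genes closest to Ugdh in pattern were sought among 10361 genes with a mean intensity above the median. Over the 8 arrays the highest Pearson correlations of log2 intensity with Ugdh were those of Lamtor1 (0.995), a subunit of the lysosomal Ragulator complex, Thnsl2 (0.994), a threonine synthase-like protein, and Ccl9 (0.994), a chemokine. Over the 7 arrays without NaPB replicate 4 they were 0.994, 0.991 and 0.995. Ccl9 read 25.4, 21.2, 20.1 and 3.20 on the NaPB arrays, against 7.73, 4.55, 6.45 and 4.96 on the control arrays. These genes share the dip on NaPB replicate 4 and were picked for their likeness from many genes, so the values only describe it.

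None of the 8 hepatocyte markers was at the floor on all arrays. The same held for the exocrine pancreas markers, so this does not identify the tissue. The summed intensity of the hepatocyte markers was 1952 to 3323 on the NaPB arrays, against 3159 to 5362 on the control arrays. The lowest sum was that of NaPB replicate 4, where 7 of the 8 were below every control. The same held for 36.6% of all genes, and for 60.7% of those at least as bright as the dimmest measured glucuronidation gene. None of the 8 passed (2 at an unadjusted p below 0.05 in limma, where 10.1% of all genes were). Their mean deviation from the control mean was −0.30, −0.22, −0.53 and −0.87 log2 units on NaPB replicates 1 to 4, so that they did not share the high values of the glucuronidation genes on replicates 1 to 3. Of 5 measured neutrophil markers 1 was called higher, S100a8, where 0.391% of all genes were. It was higher by 6.43 on the log2 scale (limma adjusted p = 0.0176). The call was kept in 3 of the 8 fits that left out 1 array. The summed intensity of the 5 markers was 51.3, 137, 74.8 and 11.7 on NaPB replicates 1 to 4, against 3.31 to 4.88 on the control arrays. S100a8 alone read 46.3, 126, 71.0 and 2.02 there, so it made up most of the sum on replicates 1 to 3. Of the 5 markers, 2 were above every control array on NaPB replicates 1 to 3, as 10.2% of all genes were. Of 6 Kupffer cell markers none was called, with 1 at an unadjusted p below 0.05 in limma (10.1% of all genes). Their summed intensity was at most 13.2 on the NaPB arrays, below every control array (up to 18.1). Timd4 was at the floor throughout. The part of these cell types, and of the array's intensity range, in the values of the glucuronidation genes was not tested.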

How the data were processed

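Liver RNA was hybridised to 8 Agilent arrays of 1 colour (4 per diet) and quantified with Agilent Feature Extraction 10.7, per the submitters' processing notes. The authors deposited linear spot intensities; their 75th percentile was 0.952 to 0.974 on each array, and the rule of scaling is not given in the sources used here. The number of arrays limits the precision. Of 62976 features, 31465 carried 1 gene symbol; 3282 symbols were updated through RefSeq tables (GRCm38.p6, names and order only). The log2 intensity was taken with no pseudocount and no filter. The brightest feature stood for each of 20738 genes. Diets were compared with limma 3.58.1 in R 4.3.3, two-sided, p being adjusted after Benjamini and Hochberg over all genes (called below 0.05), and over all features in a separate fit. Ugdh minus Ugp2 was tested by exact permutation; the planned test of Ugt1a1 minus Ugt1a9 was not run. Of the other lists, the 4 genes with the smallest p are named for the transferase and the UDP-glucose lists. Every measured gene is named for the index, receptor and transporter lists. S100a8 was named, and the values of Ugt2b37, Ugt2b38 and Ugt2a1 on NaPB replicate 4 were added, after they were seen. Members and lists were chosen with earlier results of these data known. Alternatives covered scaling, filters, pseudocounts, features, array weights, the replicate block and arrays left out. The model was checked on simulated data with independent noise and no deviant array. That check does not cover an array that stands apart, as NaPB replicate 4 did. Promoters, alignments and figures were made with Python 3.11.15, Biopython 1.88, numpy 2.4.6, pandas 2.3.3 and matplotlib 3.10.9.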

Additional observations from a re-analysis of the deposited data

Results flagged for a closer look

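Of 20 groups of 4 arrays examined (10 features in 2 diets), 4 had an array whose gap to its nearest neighbour, divided by the range of the group, exceeded Dixon's critical value for a group of 4. Chance gives about 1 in 20. In all 4 the array was NaPB replicate 4 and it was the lowest. The ratio was 0.8642 for Ugt2b34, 0.9322 for Ugdh, 0.9219 for the brighter feature of Ugp2 and 0.9423 for its other feature. The features of Ugp2 share a gene and all 4 share an array, so they are not separate observations. The cause was not tested.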

How the results depend on the processing

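Of 168 recomputed fold changes of the 8 genes over 21 other settings, 152 kept their sign and their side of the threshold, 9 came to pass and 7 changed sign. The sign changes were those of Ugt2a3 (0.26 with array weights, 0.31 without NaPB replicate 4, 0.02 without control replicate 1, 0.47 without both of these arrays, and 0.34 when each array was shifted by its hepatocyte markers, a setting added after the data were seen) and of Ugt2b5 (−0.16 without NaPB replicate 2 and −0.0024 without NaPB replicate 3). Over the settings that leave out 1 array, the fold change of Ugt2a3 ran from −0.37 to 0.31 and that of Ugt2b5 from −0.16 to 0.91. The number of the 8 genes called higher was 0, 2 with array weights (Ugt2b34 and Ugdh; limma adjusted p = 0.00951 and 0.0324), 0 to 2 with 1 array left out, 4 without NaPB replicate 4 and control replicate 1 (adding Ugt2b1 and Ugt2b35; limma adjusted p = 0.0427 and 0.0434) and 1 with the hepatocyte marker shift (Ugt2b34; limma adjusted p = 0.0399), which moved the median of all genes to 0.50. None was called lower in any setting. Of the 10 features, 0 were called, 1 with array weights, 0 to 3 with 1 array left out and 3 without both arrays. Without NaPB replicate 4, 7 of the 8 genes had no overlap between diets, all higher, against 0 with all arrays. NaPB replicates 1 to 3 were above every control for 10.2% of all genes and 23.5% of those at least as bright as the dimmest of the 8. Over all genes, 209 were called, 328 with quantile normalization, 111 with equal medians, 812 with array weights (56.4% higher, against 38.8%), 570 without both arrays (65.6% higher) and 1617 with the hepatocyte marker shift (91.7% higher). With 1 array left out the count ran from 88 to 365 (88, 107, 94 and 365 without NaPB replicates 1 to 4, and 145, 119, 91 and 99 without control replicates 1 to 4). Ugdh minus Ugp2 differed between diets by 0.86 to 1.32 with 1 array left out, and by 1.42 without both arrays, where the exact p of 0.1 is the smallest possible. The cause of these changes was not tested.

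With the replicate number as a block, 135 genes and 0 of the 8 were called, and Ugdh minus Ugp2 was 0.99 (exact p = 0.125). Nothing shows that the numbers pair arrays: same-numbered deviations correlated at 0.23, −0.29, 0.04 and 0.23, and 2 of 8 arrays correlated best with their own number. The planned Ugt1a1 settings could not be run without a feature. The number of arrays and NaPB SDs of up to 1.62 log2 units limit the precision: over all arrays the 95% interval of Ugdh ran from −0.27 to 2.67.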
